A study of Mus musculus with 9 samples.

Results

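The lysosomal genes described here are 42 mouse genes for the working parts of the lysosome: enzymes that split sugar chains, sulfate esters and lipids, cathepsins and other proteases, proteins of the lysosomal membrane, soluble cofactors and transfer proteins, and the transcription factor Tfeb. They were chosen by symbol, through probe sets that name a single gene symbol in the platform table of the array, and each gene was read from whichever of its probe sets had the highest mean across all 9 arrays. Of the 42 genes, 41 had such a probe set, out of 18193 genes with one, and Cd63 is not analysed here because no probe set names it alone. A filter on low signal, at 5.72 on the log2 scale, left 39 of these lysosomal genes among 12735 genes tested, and Ctsf and Ctss lay below it.

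Lysosomes are acidic compartments in which enzymes break down proteins, sugar chains, nucleic acids and lipids delivered by endocytosis and autophagy. Most soluble lysosomal enzymes are tagged with mannose 6-phosphate in the Golgi apparatus and carried to the lysosome by receptors. Many of their genes carry an E-box, the site to which Tfeb and its relatives bind, and in fat cells lysosomal acid lipase takes part in the breakdown of lipid droplets.

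The study measured gene expression on Affymetrix arrays in 3T3-L1 cells, a mouse line that is differentiated from preadipocytes into fat cells in culture, after depletion of Ebf1, an early B cell factor that binds DNA and takes part in fat cell formation. Each of the 3 groups has 3 arrays: cells that received lentivirus with hairpin 2 against Ebf1, cells that received hairpin 1 against Ebf1, and cells that received a scrambled control hairpin. All groups, the control included, were mature cells that went through 3 to 4 rounds of infection and at least 8 days of selection with puromycin at 5 µg/ml, which removes cells without the virus, and their RNA was amplified with a NuGEN kit for very small inputs before biotin labelling, per the labels' protocols. The array titles number repeats and do not say whether they came from separate cultures, so the p-values measure the spread between arrays, which may be technical.

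All values are deposited log2 signals, on which a difference of 1 is a 2-fold change, and levels are not compared between genes, because each probe set has its own response. Ebf1 itself lay at 8.94 ± 0.243 with hairpin 2 and 9.44 ± 0.111 with hairpin 1, against 10.19 ± 0.101 with the scrambled hairpin (SD, n = 3 each), and its probe set fell by 1.25 with hairpin 2 (adjusted p = 2.98e-07) and by 0.75 with hairpin 1 (adjusted p = 0.000102) in limma. It was also lower with hairpin 2 than with hairpin 1, by a log2 difference of -0.50 (adjusted p = 0.00351, limma). Both comparisons with the scrambled hairpin use the same 3 control arrays. Correlations between arrays lay between 0.994 and 0.998 inside a group and between 0.974 and 0.989 across groups, and 3 arrays per group limit the precision of every value. In RNA from whole cultures, fewer cells of a type and less RNA per cell cannot be told apart.

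RefSeq promoter windows, from 250 bases before to 50 bases after the annotated start of a gene in GRCm38.p6, were found for 36 of the 42 genes, and 4 of them are shown because their genes differ in how they behaved under the hairpins. Gla rose with both hairpins, Ctsk and Mcoln1 with hairpin 2, and Lamp1 fell with hairpin 1. The sequences are the 250 bases before the start, on the strand of the gene, at chrX:134601006-134601255 (minus strand) for Gla, chr3:95498960-95499209 (plus strand) for Ctsk, chr8:13158911-13159160 (plus strand) for Lamp1 and chr8:3500269-3500518 (plus strand) for Mcoln1. Capitals mark each E-box core, CACGTG.
Gla: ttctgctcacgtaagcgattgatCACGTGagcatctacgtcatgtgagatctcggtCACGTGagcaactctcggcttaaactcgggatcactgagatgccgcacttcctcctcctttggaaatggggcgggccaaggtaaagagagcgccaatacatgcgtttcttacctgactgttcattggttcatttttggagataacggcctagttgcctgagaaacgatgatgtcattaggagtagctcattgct
Ctsk: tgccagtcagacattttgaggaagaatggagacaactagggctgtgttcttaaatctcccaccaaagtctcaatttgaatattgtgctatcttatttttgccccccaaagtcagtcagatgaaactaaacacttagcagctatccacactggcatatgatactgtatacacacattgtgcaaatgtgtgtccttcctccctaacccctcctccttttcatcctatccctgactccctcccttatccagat
Lamp1: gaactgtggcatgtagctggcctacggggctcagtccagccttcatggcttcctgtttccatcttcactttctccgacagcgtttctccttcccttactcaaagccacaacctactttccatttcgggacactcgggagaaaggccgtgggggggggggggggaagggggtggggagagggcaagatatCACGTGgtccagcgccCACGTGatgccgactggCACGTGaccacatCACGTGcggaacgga
Mcoln1: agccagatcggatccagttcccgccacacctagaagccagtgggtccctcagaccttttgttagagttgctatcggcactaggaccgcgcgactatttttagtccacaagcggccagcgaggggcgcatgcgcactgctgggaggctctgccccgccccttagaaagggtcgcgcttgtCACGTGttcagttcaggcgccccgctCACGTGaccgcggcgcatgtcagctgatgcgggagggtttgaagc
The stretch shown holds 2 E-box cores in Gla, 0 in Ctsk, 4 in Lamp1 and 2 in Mcoln1.

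The core CACGTG, which reads the same on both strands, was present in 11 of the 36 lysosomal genes with a window: Gla, Glb1, Gaa, Arsa, Sgsh, Ctsa, Ctsd, Ctsf, Ctsl, Lamp1 and Mcoln1. Counted by window, 11 of 40 windows of these genes held it (27.5%), and 2349 of all 32851 RefSeq windows of the same length (7.15%). The longer form TCACGTG, searched on both strands and always overlapping a core, was present in 9 of the genes and in 3.77% of all windows. The palindrome TCCCNNGGGA, which Ebf proteins bind, was present in 0 of the 36 genes and in 0.904% of all windows. The genes with a core did not move together. Of the 10 tested, 4 were higher and 1 lower with hairpin 2 (median difference 0.16), and 3 were higher and 1 lower with hairpin 1 (median 0.10). Of the 23 tested genes with a window and no core, 11 were higher and 5 lower with hairpin 2 (median 0.11), and 6 were higher and 6 lower with hairpin 1 (median 0.10). Over all tested genes, 21.5% were higher and 13.3% lower with hairpin 2, and 23.7% higher and 9.23% lower with hairpin 1. These sequence matches describe letters in a fixed window and not binding.

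**Figure D1:**
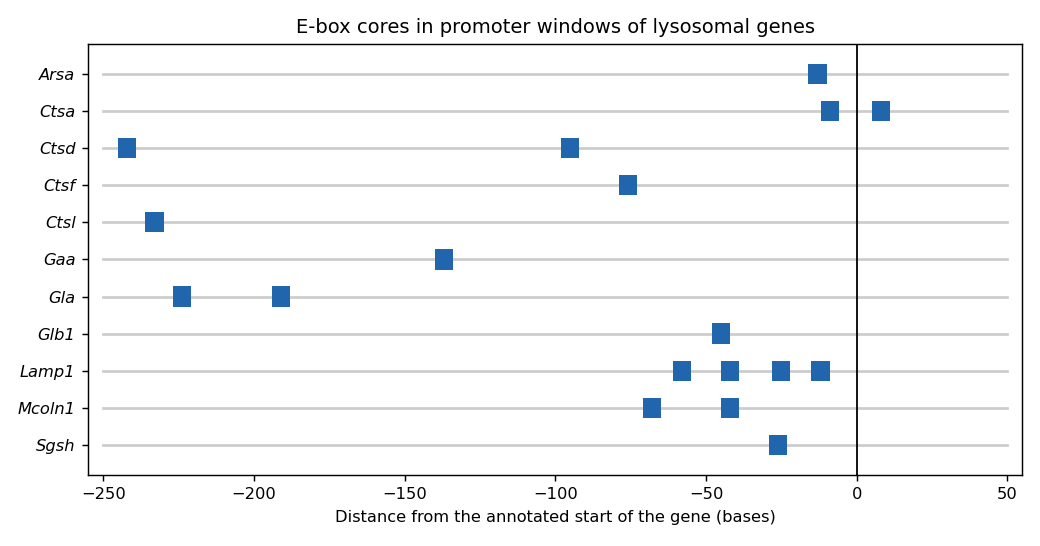
Positions of E-box cores (blue blocks) in the promoter windows of the 11 lysosomal genes that hold one, as the distance in bases from the annotated start of the gene (vertical line), with each window drawn as a grey line. Lamp1 holds 4 cores close to its start, and Gla holds 2 near the far end of its window.

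In the fit used here, more of the tested lysosomal genes rose than fell under each hairpin, and with hairpin 1 the count higher depended on the setting. With hairpin 2, 18 of 39 were higher (46.2%) and 8 were lower (20.5%) at an adjusted p below 0.05, beside 34.8% of all 12735 tested genes called in this comparison, 21.5% higher and 13.3% lower. With hairpin 1, 11 of 39 were higher (28.2%) and 8 lower (20.5%), beside 33% of all genes called, 23.7% higher and 9.23% lower. The share of lysosomal genes higher with hairpin 1 lay near the share of all genes, and the share lower, 20.5%, lay above the 9.23% of all genes. Cd68, whose level lies below the filter with hairpin 1 and with the scrambled hairpin, is 1 of the 18, and without it 17 of 38 were higher with hairpin 2. That count of 11 was 7 without hairpin 1 repeat 3, 6 when all probe sets of a gene were averaged, and 19 with arrays weighted by quality. The median difference of the lysosomal genes was 0.11 with hairpin 2 and 0.10 with hairpin 1, beside medians over all tested genes of 0.02 and 0.07. Quantile normalization of the deposited values changed the split of all calls with hairpin 1, to 2454 higher and 1703 lower, beside 3023 higher and 1176 lower as deposited, and gave 10 lysosomal genes higher and 8 lower.

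**Figure D2:**
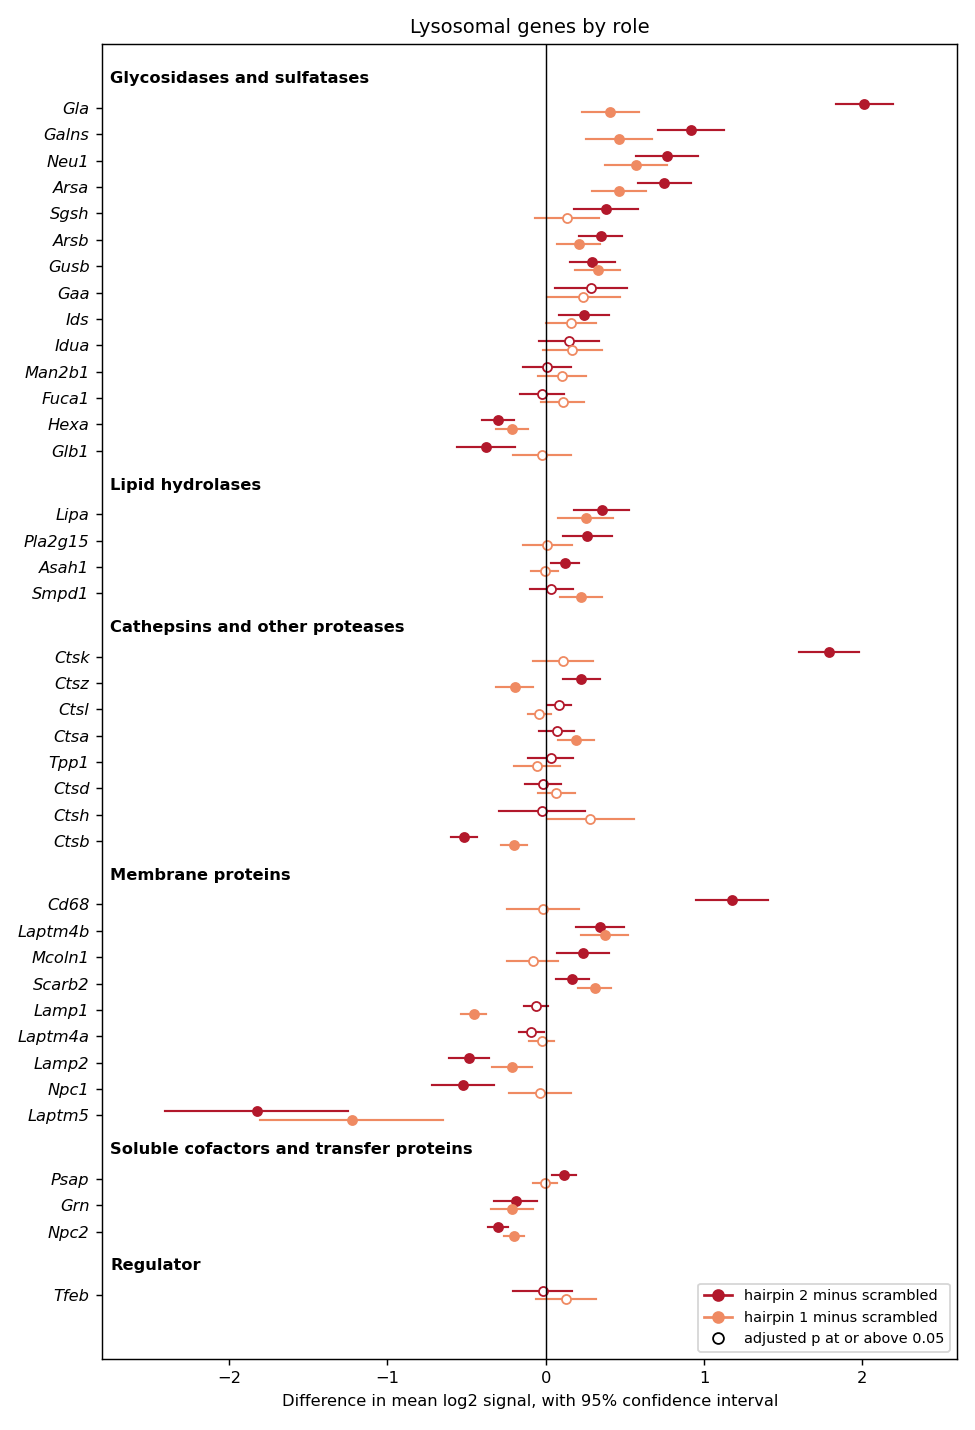
Differences in mean log2 signal from the scrambled control for the 39 tested lysosomal genes, grouped by role and ordered by the hairpin 2 difference, with 95% confidence intervals (dark red, hairpin 2; orange, hairpin 1; open circles, adjusted p at or above 0.05 in limma). Gla and Ctsk stand farthest to the right with hairpin 2, and Laptm5 farthest to the left with both hairpins.

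Among the enzymes that cut sugar chains and sulfate esters, more rose than fell on their brightest probe sets. Of the 14 glycosidases and sulfatases, 8 rose (57.1%) and 2 fell (14.3%) under hairpin 2, beside 21.5% higher and 13.3% lower over all genes. Under hairpin 1, 6 rose (42.9%) and 1 fell (7.14%), beside 23.7% higher and 9.23% lower. The median differences were 0.29 with hairpin 2 and 0.19 with hairpin 1. Both counts depend on how probe sets are read. With all probe sets of a gene averaged, Arsb gave 0.01, Sgsh 0.09 and Ids -0.03 with hairpin 2, none called. With hairpin 1, Gla gave 0.12 and Arsb -0.13 as averages, neither called. Gla codes for α-galactosidase A, which removes galactose from glycolipids and whose deficiency causes Fabry disease in humans. Gla measured 11.10, 11.25 and 11.19 with hairpin 2, 9.45, 9.59 and 9.69 with hairpin 1, and 9.13, 9.16 and 9.22 with the scrambled hairpin. The 3 groups did not overlap, and hairpin 2 stood well above both others. Gla rose 4.03-fold with hairpin 2 (log2 difference 2.01, SE 0.0847, adjusted p = 2.62e-11, limma) and 1.33-fold with hairpin 1 (0.41, SE 0.0847, adjusted p = 0.00158, limma). The difference between the hairpins was itself 1.60 (adjusted p = 2.03e-09, limma). A dimmer probe set of Gla gave 1.09 with hairpin 2 (adjusted p = 0.0043 over all probe sets, limma) and 0.02 with hairpin 1 (adjusted p = 0.967), so its rise with hairpin 1 rests on the brightest probe set.

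Galns, a sulfatase of keratan sulfate and chondroitin sulfate, measured 9.22, 9.27 and 9.02 with hairpin 2, 8.68, 8.73 and 8.74 with hairpin 1, and 8.09, 8.38 and 8.28 with the scrambled hairpin. The groups formed 3 separate steps. It rose 1.89-fold with hairpin 2 (adjusted p = 1.82e-06, limma) and 1.38-fold with hairpin 1 (adjusted p = 0.00174), and the hairpins differed by 0.45 (adjusted p = 0.00237). Its only other probe set had a mean of 4.86, near the floor. Arsa, arylsulfatase A, which removes sulfate from the myelin lipid sulfatide, measured 11.39, 11.59 and 11.40 with hairpin 2, 11.08, 11.30 and 11.15 with hairpin 1, and 10.67, 10.70 and 10.76 with the scrambled hairpin. Again no group overlapped another, and Arsa rose 1.68-fold with hairpin 2 (adjusted p = 1.7e-06, limma) and 1.38-fold with hairpin 1 (adjusted p = 0.000328). Neu1, the lysosomal sialidase, measured 10.07, 10.33 and 10.12 with hairpin 2, 9.86, 10.09 and 9.98 with hairpin 1, and 9.34, 9.43 and 9.46 with the scrambled hairpin. Both hairpin groups lay above the control and overlapped each other. Neu1 rose 1.70-fold with hairpin 2 (adjusted p = 7.23e-06, limma) and 1.48-fold with hairpin 1 (adjusted p = 0.000206), and the hairpin difference of 0.19 did not pass (95% confidence interval -0.000724 to 0.39). Its dimmer probe set above the filter gave 0.23 with hairpin 2 and 0.15 with hairpin 1, neither called.

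Gusb, β-glucuronidase, rose by a log2 difference of 0.29 with hairpin 2 (adjusted p = 0.00257) and 0.33 with hairpin 1 (adjusted p = 0.00134, limma). So did Arsb, a sulfatase of dermatan sulfate, which rose by 0.35 with hairpin 2 (adjusted p = 0.00051) and 0.21 with hairpin 1 (adjusted p = 0.0213, limma). The call on Arsb with hairpin 1 ended without hairpin 1 repeat 3, scrambled repeat 1 or scrambled repeat 2 (adjusted p = 0.0708 to 0.0878, limma). A dim probe set of Arsb ran the other way, at -0.44 with hairpin 2 (adjusted p = 0.00761) and -0.48 with hairpin 1 (adjusted p = 0.0055 over all probe sets, limma), so the direction of Arsb depends on the probe set. Sgsh, which removes sulfate from heparan sulfate, rose by 0.38 with hairpin 2 (adjusted p = 0.00488, limma) and gave 0.14 with hairpin 1 (adjusted p = 0.304), while its dimmer probe set gave -0.21 with hairpin 2 and -0.19 with hairpin 1, neither called. Ids, a sulfatase of dermatan and heparan sulfate, rose by 0.24 with hairpin 2 (adjusted p = 0.017, limma) and gave 0.16 with hairpin 1 (adjusted p = 0.112). Its next brightest probe set gave -0.31 with hairpin 2 (adjusted p = 0.047 over all probe sets, limma), and the call ended without hairpin 2 repeat 3 or without scrambled repeat 3 (adjusted p = 0.0715 to 0.0943).

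Both genes that fell with hairpin 2, Hexa and Glb1, code for enzymes that act on gangliosides. Hexa, the α subunit of β-hexosaminidase A, averaged 12.87 ± 0.0472 with hairpin 2 and 12.95 ± 0.0686 with hairpin 1, against 13.17 ± 0.0333 with the scrambled hairpin (SD, n = 3 each), and fell by 0.30 with hairpin 2 (adjusted p = 0.000128) and by 0.21 with hairpin 1 (adjusted p = 0.00301, limma). Glb1, acid β-galactosidase, measured 10.73, 10.52 and 10.80 with hairpin 2, 10.95, 11.08 and 11.09 with hairpin 1, and 10.98, 11.02 and 11.18 with the scrambled hairpin. All hairpin 2 arrays lay below the others, and hairpin 1 overlapped the control. Glb1 fell by 0.37 with hairpin 2 (adjusted p = 0.00284, limma) and gave -0.02 with hairpin 1 (adjusted p = 0.884). The other 4 enzymes of this class passed with neither hairpin on their brightest probe sets. With hairpin 2, the glycogen-degrading Gaa gave 0.29 (adjusted p = 0.0511, limma), Idua, which trims dermatan and heparan sulfate, 0.15, the α-mannosidase Man2b1 0.01 and the α-fucosidase Fuca1 -0.02. With hairpin 1, Gaa gave 0.24, Idua 0.17, Man2b1 0.10 and Fuca1 0.11. A dimmer probe set of Man2b1 gave 0.43 with hairpin 2 (adjusted p = 0.0392 over all probe sets, limma) and 0.14 with hairpin 1.

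Among the 4 lipid hydrolases, 3 rose (75%) and 0 fell under hairpin 2 in limma, beside 21.5% higher and 13.3% lower over all genes. Under hairpin 1, 2 rose (50%) and 0 fell, beside 23.7% higher and 9.23% lower. With each hairpin, 0 of the lipid hydrolases were lower also at an unadjusted p below 0.05. Their differences from the control were at most 0.35. Lipa, lysosomal acid lipase, which splits cholesteryl esters and triglycerides, measured 11.39, 11.27 and 11.20 with hairpin 2, 11.03, 11.31 and 11.21 with hairpin 1, and 10.90, 10.99 and 10.91 with the scrambled hairpin. Both hairpin groups lay above the control and overlapped each other. Lipa rose 1.28-fold with hairpin 2 (adjusted p = 0.00273, limma) and 1.19-fold with hairpin 1 (adjusted p = 0.0254). The call with hairpin 1 ended without hairpin 1 repeat 2 or 3 and without scrambled repeat 1 or 3 (adjusted p = 0.0792 to 0.103). Pla2g15, the lysosomal phospholipase A2, rose by 0.26 with hairpin 2 (adjusted p = 0.00957, limma; 0.0629 without scrambled repeat 1) and gave 0.01 with hairpin 1. Asah1, acid ceramidase, rose by 0.12 with hairpin 2 (adjusted p = 0.0274, limma), and gave -0.01 with hairpin 1. That call ended without hairpin 2 repeat 1 or 2 and without any scrambled array (adjusted p = 0.052 to 0.104). Smpd1, acid sphingomyelinase, which makes ceramide from sphingomyelin, gave 0.04 with hairpin 2 and rose by 0.22 with hairpin 1 (adjusted p = 0.0125, limma), and this call ended without hairpin 1 repeat 3 or scrambled repeat 1 (adjusted p = 0.0566 to 0.081).

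**Figure D3:**
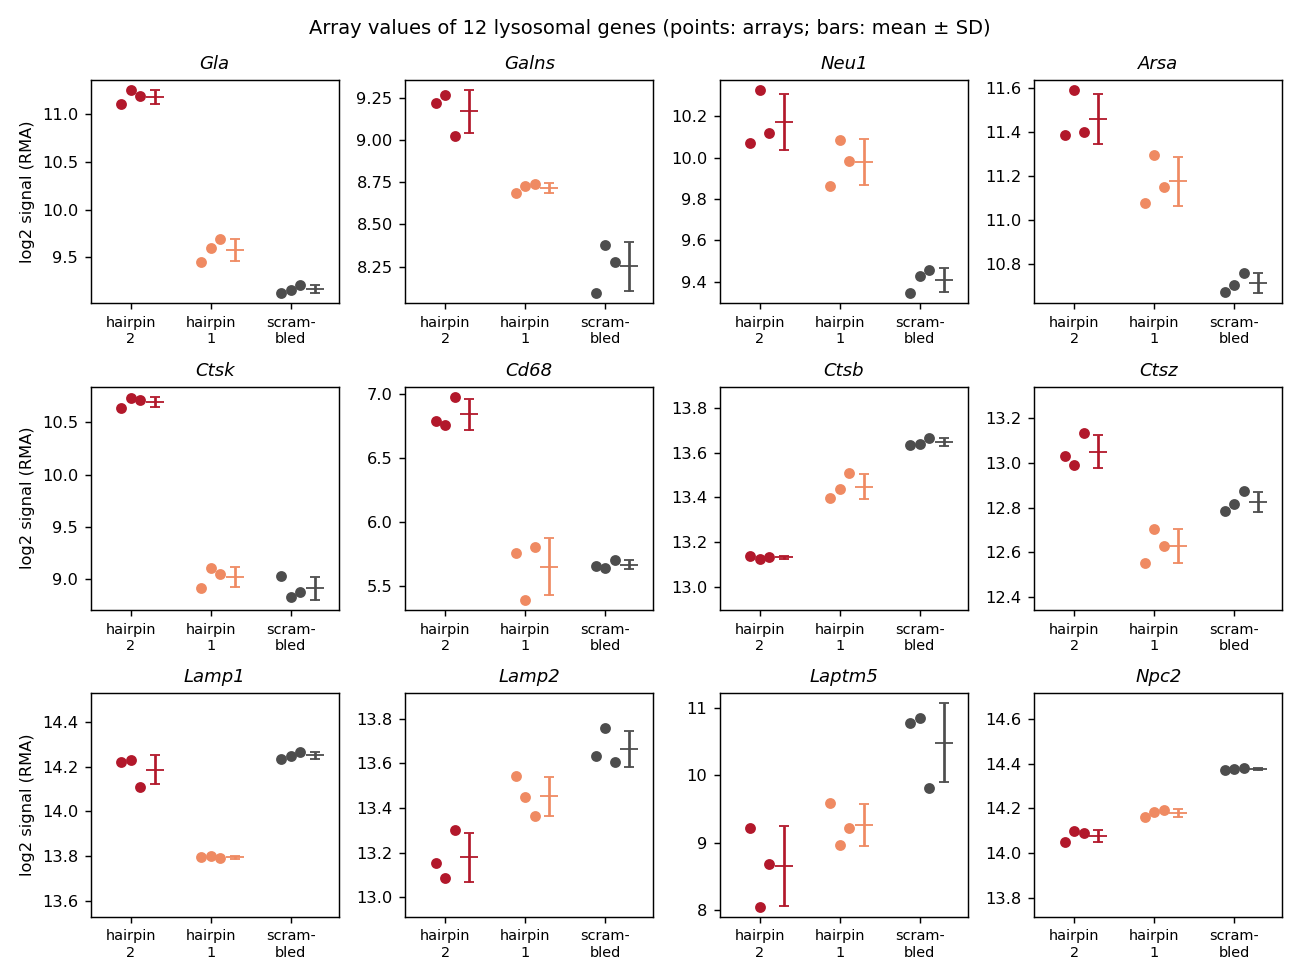
Log2 signals of 12 lysosomal genes on every array (points, 3 per group), with the mean and SD of each group beside them, for hairpin 2 (dark red), hairpin 1 (orange) and the scrambled control (grey). Gla, Ctsk and Cd68 stand apart with hairpin 2, Lamp1 stands apart with hairpin 1, and Ctsz lies above the control with hairpin 2 and below it with hairpin 1.

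Of the 8 cathepsins and other proteases tested among 10, 2 rose (25%) and 1 fell (12.5%) under hairpin 2, beside 21.5% higher and 13.3% lower over all genes, and 1 rose (12.5%) and 2 fell (25%) under hairpin 1, beside 23.7% higher and 9.23% lower. The medians were 0.05 with hairpin 2 and 0.01 with hairpin 1. Ctsk, cathepsin K, a cysteine protease that degrades collagen and is best known from osteoclasts, measured 10.64, 10.74 and 10.72 with hairpin 2, 8.91, 9.10 and 9.04 with hairpin 1, and 9.03, 8.82 and 8.87 with the scrambled hairpin. The hairpin 2 arrays stood far above all others, and hairpin 1 overlapped the control. Ctsk rose 3.46-fold with hairpin 2 (log2 difference 1.79, SE 0.0886, adjusted p = 2.02e-10, limma) and gave 0.11 with hairpin 1 (95% confidence interval -0.08 to 0.30), and the hairpins differed by 1.68 (adjusted p = 2.02e-09, limma). Fibroblast markers moved in the same arrays. Of 12 tested, 11 were higher with hairpin 2 and 12 with hairpin 1, beside 21.5% and 23.7% of all genes. The mean level of the 13 measured markers had a median over arrays of 11.79 with hairpin 2 and 11.74 with hairpin 1. With the scrambled hairpin it was 10.91, and every hairpin array lay above the control arrays. Lum, a collagen-binding proteoglycan, rose by 2.00 with hairpin 2 and 1.58 with hairpin 1, and Col1a1, a chain of type I collagen, by 1.98 with hairpin 2 and 1.69 with hairpin 1. Fn1, fibronectin, rose by 1.61 with hairpin 2 and 1.27 with hairpin 1, and Dcn, the proteoglycan decorin, by 1.46 with hairpin 2 and 1.42 with hairpin 1. Dlk1, a preadipocyte marker, gave -0.83 with hairpin 2 and 0.70 with hairpin 1, both called, and Cd34 lay below the filter. The part of these markers in the lysosomal differences was not tested.

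Ctsb, cathepsin B, a cysteine protease of broad action, fell with both hairpins. It measured 13.14, 13.13 and 13.13 with hairpin 2, 13.40, 13.44 and 13.51 with hairpin 1, and 13.64, 13.64 and 13.67 with the scrambled hairpin. The groups formed 3 separate steps downward, and Ctsb fell 1.43-fold with hairpin 2 (adjusted p = 5.04e-08, limma) and 1.15-fold with hairpin 1 (adjusted p = 0.0012). Its other 3 probe sets above the filter gave -0.56, -0.87 and -0.39 with hairpin 2, all called. With hairpin 1 they gave -0.17, -0.40 and -0.32 in the same order, and only the probe set at -0.40 was called. Ctsz, cathepsin Z, which cuts single residues from the carboxyl end of proteins, measured 13.03, 12.99 and 13.13 with hairpin 2, 12.55, 12.70 and 12.63 with hairpin 1, and 12.78, 12.82 and 12.88 with the scrambled hairpin. The hairpin 2 arrays lay above the control and the hairpin 1 arrays below it. Ctsz rose by 0.23 with hairpin 2 (adjusted p = 0.00367, limma), fell by 0.20 with hairpin 1 (adjusted p = 0.0107), and differed by 0.42 between them (adjusted p = 2.42e-05). Its call with hairpin 1 ended without scrambled repeat 3 (adjusted p = 0.0541), and its other 2 probe sets gave 0.27 and 0.24 with hairpin 2 and -0.20 and -0.28 with hairpin 1.

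Ctsa, a carboxypeptidase that also shields Neu1 and Glb1 in a complex, gave 0.07 with hairpin 2 (adjusted p = 0.344, limma) and rose by 0.19 with hairpin 1 (adjusted p = 0.0104), a call that ended without hairpin 1 repeat 3 or scrambled repeat 2 (adjusted p = 0.0542 to 0.0585). Ctsl, cathepsin L, gave 0.09 with hairpin 2 (adjusted p = 0.0611, limma) and -0.04 with hairpin 1, and only the difference between its hairpins passed, at 0.13 (adjusted p = 0.0104). Ctsd, the aspartic protease cathepsin D, gave -0.02 with hairpin 2 (95% confidence interval -0.13 to 0.10) and 0.07 with hairpin 1 (-0.05 to 0.18), and Tpp1, a tripeptidyl peptidase, gave 0.03 with hairpin 2 and -0.05 with hairpin 1. The dimmer probe set of Tpp1 gave 0.27 with hairpin 2 (adjusted p = 0.0484 over all probe sets, limma) and -0.06 with hairpin 1. Ctsh, cathepsin H, lay close to the filter, at means of 5.75 with hairpin 2, 6.05 with hairpin 1 and 5.77 with the scrambled hairpin, and passed in neither comparison. Ctsf and Ctss, the proteases cathepsin F and cathepsin S, had means over the 9 arrays of 5.62 and 5.07, below the filter.

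**Figure D4:**
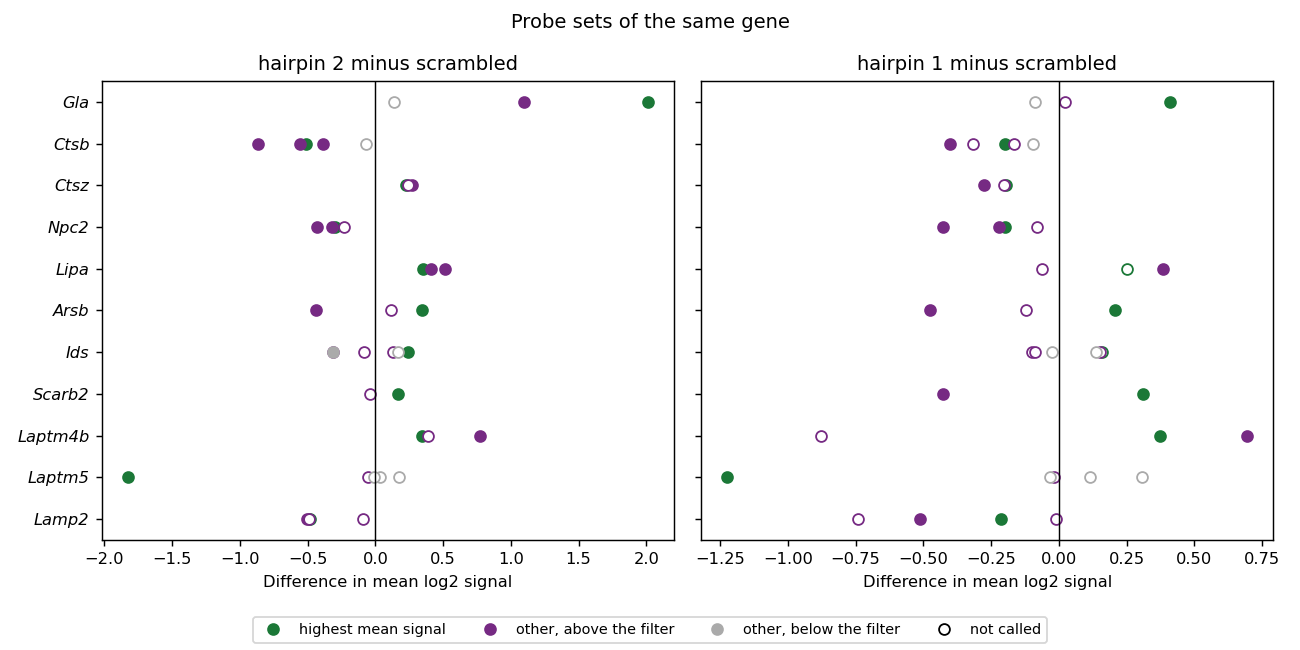
Differences from the scrambled control of every probe set with a single symbol for 11 lysosomal genes, tested over all probe sets (green, brightest probe set; purple, others above the filter; grey, others below it; open circles, adjusted p at or above 0.05 in limma). The probe sets of Ctsb, Ctsz, Npc2 and Lamp2 lie on one side of 0 for each hairpin. Those of Gla, Lipa, Arsb, Ids, Scarb2, Laptm4b and Laptm5 lie on both sides in at least 1 panel.

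Proteins of the lysosomal membrane split in both directions. Of the 9 tested among 10, 4 rose (44.4%) and 3 fell (33.3%) under hairpin 2, beside 21.5% higher and 13.3% lower over all genes. Cd68, which passed the filter through its level with hairpin 2 alone, is among the 4 and gives that share no support. With hairpin 1, 2 rose (22.2%), near the 23.7% of all genes, and 3 fell (33.3%), beside 9.23%. The medians were -0.06 with hairpin 2 and -0.04 with hairpin 1. Lamp1 and Lamp2, heavily glycosylated proteins that line the inner face of the membrane, differed in their pattern. Lamp1 measured 14.22, 14.23 and 14.11 with hairpin 2, 13.79, 13.80 and 13.79 with hairpin 1, and 14.24, 14.25 and 14.27 with the scrambled hairpin. The hairpin 1 arrays stood apart below the rest, and Lamp1 fell by 0.46 with hairpin 1 (adjusted p = 1.27e-07, limma) and gave -0.06 with hairpin 2 (adjusted p = 0.2), with a difference between the hairpins of 0.39 (adjusted p = 8.04e-07). Lamp2, which is also needed for fusion of autophagosomes with lysosomes, measured 13.15, 13.08 and 13.30 with hairpin 2, 13.54, 13.45 and 13.37 with hairpin 1, and 13.63, 13.76 and 13.60 with the scrambled hairpin. On this brightest probe set the groups stepped down without overlap, by 0.49 with hairpin 2 (adjusted p = 9.19e-06, limma) and by 0.21 with hairpin 1 (adjusted p = 0.0125). The call with hairpin 1 ended without hairpin 1 repeat 3 or scrambled repeat 2 (adjusted p = 0.0663 to 0.0737). The next brightest probe set of Lamp2 gave -0.50 with hairpin 2 and -0.51 with hairpin 1, both called over all probe sets. The third brightest gave -0.09 with hairpin 2 and -0.01 with hairpin 1, and the dimmest -0.49 and -0.74, none called.

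Npc1, which exports cholesterol through the membrane, measured 8.03, 8.27 and 8.19 with hairpin 2, 8.57, 8.74 and 8.63 with hairpin 1, and 8.64, 8.76 and 8.65 with the scrambled hairpin. The hairpin 2 arrays lay below all others, and Npc1 fell 1.43-fold with hairpin 2 (adjusted p = 0.000334, limma) and gave -0.04 with hairpin 1. Npc2, the soluble protein that hands cholesterol to Npc1, measured 14.05, 14.10 and 14.09 with hairpin 2, 14.16, 14.18 and 14.19 with hairpin 1, and 14.37, 14.38 and 14.38 with the scrambled hairpin. It fell by 0.30 with hairpin 2 (adjusted p = 1.03e-06, limma) and by 0.20 with hairpin 1 (adjusted p = 0.000117), and values this high lie near the ceiling of the array, where differences are compressed. Grn, progranulin, fell by 0.19 with hairpin 2 (adjusted p = 0.0287, limma) and by 0.21 with hairpin 1 (adjusted p = 0.0173), and each call ended without any of 3 arrays taken singly. The adjusted p was 0.0908 to 0.165 with hairpin 2 without its repeat 3, scrambled repeat 2 or scrambled repeat 3, and 0.0588 to 0.0979 with hairpin 1 without its repeat 2 or the same scrambled arrays. The dimmer probe sets of Grn gave -0.10 and 0.02 with hairpin 2, and -0.13 and -0.06 with hairpin 1, none called. Averaged probe sets gave -0.09 with hairpin 2 (adjusted p = 0.133, limma), so that call depends on the probe set. Psap, the precursor of the saposins that present lipids to hydrolases, rose by 0.11 with hairpin 2 (adjusted p = 0.0199, limma), and gave -0.01 with hairpin 1. That call ended without hairpin 2 repeat 2, scrambled repeat 1 or scrambled repeat 2 (adjusted p = 0.0633 to 0.071).

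Mcoln1, a calcium channel of the lysosomal membrane, measured 11.58, 11.66 and 11.57 with hairpin 2, 11.11, 11.37 and 11.37 with hairpin 1, and 11.39, 11.29 and 11.41 with the scrambled hairpin. Only the hairpin 2 arrays lay clear of the control, and Mcoln1 rose 1.18-fold with hairpin 2 (adjusted p = 0.0241, limma), and gave -0.08 with hairpin 1. The call ended without hairpin 2 repeat 1 or 2 and without scrambled repeat 1 or 2 (adjusted p = 0.0505 to 0.112), and its next brightest probe set gave 0.34 with hairpin 2 (adjusted p = 0.00405 over all probe sets, limma). Laptm4b, a transmembrane protein of late endosomes and lysosomes, rose by 0.34 with hairpin 2 (adjusted p = 0.00114, limma) and 0.37 with hairpin 1 (adjusted p = 0.000767). The next brightest probe set of Laptm4b gave 0.77 with hairpin 2 and 0.69 with hairpin 1, both called over all probe sets. The third gave 0.39 with hairpin 2 and -0.88 with hairpin 1, neither called. Averaged probe sets gave 0.06 with hairpin 1 (adjusted p = 0.737, limma), so the rise of Laptm4b with hairpin 1 depends on the probe set. Its relative Laptm4a gave -0.09 with hairpin 2 and -0.02 with hairpin 1. Scarb2, which carries β-glucocerebrosidase to the lysosome, rose by 0.17 with hairpin 2 (adjusted p = 0.0131, limma) and 0.31 with hairpin 1 (adjusted p = 0.000171). Its dimmer probe set gave -0.04 with hairpin 2 and fell by 0.43 with hairpin 1 (adjusted p = 0.00068 over all probe sets, limma), so the direction of Scarb2 with hairpin 1 depends on the probe set, and its call with hairpin 2 ended without hairpin 2 repeat 1 (adjusted p = 0.0781).

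Laptm5 and Cd68, membrane proteins best known from blood cells and macrophages, moved apart. Laptm5 measured 9.23, 8.05 and 8.69 with hairpin 2, 9.58, 8.96 and 9.23 with hairpin 1, and 10.78, 10.86 and 9.81 with the scrambled hairpin. Its SDs of 0.587 with hairpin 2 and 0.585 with the scrambled hairpin were the largest among the tested lysosomal genes in those groups, and the control did not overlap either hairpin. Laptm5 fell 3.54-fold with hairpin 2 (adjusted p = 6.37e-05, limma) and 2.33-fold with hairpin 1 (adjusted p = 0.00261). This rests on 1 probe set: its 4 others had means of 5.10 to 5.79, near the floor, and differences from -0.05 to 0.17 with hairpin 2, none called. Cd68 measured 6.79, 6.75 and 6.98 with hairpin 2, 5.76, 5.39 and 5.80 with hairpin 1, and 5.65, 5.64 and 5.70 with the scrambled hairpin. The hairpin 2 arrays stood above the rest, and the log2 difference was 1.18 with hairpin 2 (adjusted p = 3.3e-07, limma). The control mean of 5.67 and the hairpin 1 mean of 5.65 lie below the filter, which the gene passed through its level with hairpin 2 alone, so no fold is given and its calls are no support for the counts. It gave -0.02 with hairpin 1 (95% confidence interval -0.24 to 0.21).

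Markers of macrophages and leukocytes, none of them counted among the lysosomal genes, were mostly dim, with Mpeg1 as the main exception. Of 19 on the array, 9 lay below the filter, among them Ptprc, Adgre1, Itgam and Mrc1. Of 10 tested, 0 rose and 3 fell (30%) with each hairpin in limma, with 0 higher also at an unadjusted p below 0.05. Over all genes, 21.5% were higher and 13.3% lower with hairpin 2, and 23.7% higher and 9.23% lower with hairpin 1. Mpeg1, a pore-forming protein of macrophages, averaged 7.15 with hairpin 2 and 8.59 with hairpin 1, against 11.89 with the scrambled hairpin, and gave -4.74 with hairpin 2 and -3.30 with hairpin 1, both called. Cd14, a receptor for bacterial lipopolysaccharide, averaged 8.87 with hairpin 2 and 9.03 with hairpin 1, against 9.02 with the scrambled hairpin, and passed in neither comparison. Cd74, the invariant chain of antigen presentation, fell by 0.60 with hairpin 2 and by 0.41 with hairpin 1, and the integrin Itgax fell by 0.32 with hairpin 2 and by 0.29 with hairpin 1. Fcer1g, a signalling chain of Fc receptors, gave -0.14 with hairpin 2 and -0.18 with hairpin 1, neither called. The mean level of the 19 was 5.83 to 5.99 with hairpin 2 and 5.96 to 6.01 with hairpin 1, against 6.14 to 6.18 with the scrambled hairpin, and without Mpeg1 it was 5.76 to 5.93 with hairpin 2 and 5.81 to 5.86 with hairpin 1, against 5.82 to 5.87 with the scrambled hairpin. Of 11 adipocyte markers tested, 0 rose and 3 fell (27.3%) under hairpin 2 in limma, with 1 higher at an unadjusted p below 0.05. Pparg fell by 0.56, Cidec by 0.25 and Pnpla2 by 0.20. With hairpin 1, Dgat2 rose by 0.31 and Pparg fell by 0.25, which is 9.09% of the tested markers in each direction. Lipe, hormone-sensitive lipase, gave -0.10 with hairpin 2 and -0.13 with hairpin 1, neither called. Lep lay below the filter, and the mean level of the 12 measured adipocyte markers was 12.59 to 12.64 with hairpin 2 and 12.65 to 12.74 with hairpin 1, against 12.64 to 12.75 with the scrambled hairpin. The part of these markers in the values of Laptm5, Cd68 and the other lysosomal genes was not tested.

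Tfeb, the transcription factor that activates many lysosomal genes, did not pass in any comparison. It measured 8.19, 8.10 and 8.23 with hairpin 2, 8.20, 8.41 and 8.35 with hairpin 1, and 8.21, 8.16 and 8.21 with the scrambled hairpin. The groups overlapped, and the differences were -0.02 with hairpin 2 (95% confidence interval -0.21 to 0.17, limma) and 0.13 with hairpin 1 (-0.06 to 0.32). Among 18 tested genes of its relatives and of nutrient sensing at the lysosome, 2 rose (11.1%) and 1 fell (5.56%) under hairpin 2. Under hairpin 1, 4 rose (22.2%) and 3 fell (16.7%). Over all genes, 21.5% were higher and 13.3% lower with hairpin 2, and 23.7% higher and 9.23% lower with hairpin 1. With hairpin 2 the genes called were Rraga with 0.30, Lamtor3 with 0.18 and Rragc with -0.63. They are parts of the machinery that brings the kinase mTOR to the lysosome. With hairpin 1 the genes that fell were Flcn with -0.59 and its partners Fnip1 with -0.46 and Fnip2 with -0.85, which act on the Rag proteins, and each of these 3 was higher with hairpin 2 than with hairpin 1, by 0.55, 0.57 and 1.03 (adjusted p = 0.000323, 0.00751 and 2.07e-06, limma).

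Compared directly, the hairpins differed in 19 of the 39 lysosomal genes: 12 were higher with hairpin 2 than with hairpin 1 (30.8%) and 7 lower (17.9%), beside 29.1% of all tested genes called in this comparison, 11.6% higher and 17.4% lower. The count of lower genes was 11 without hairpin 1 repeat 1. Without Cd68, whose hairpin 1 level lies below the filter, 11 of 38 were higher. The largest called differences among those 38 were 1.68 in Ctsk and 1.60 in Gla, followed by -0.48 in Npc1 and 0.45 in Galns. Laptm5 gave -0.60, which was not called (adjusted p = 0.115, limma). Only Ctsz passed in opposite directions in the comparisons with the scrambled hairpin.

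Related genes outside the 42 were read from lists of the same pathways. Membership in a list does not show that a protein works in the lysosome. Of 26 tested genes listed as other lysosomal hydrolases and proteases, 10 rose (38.5%) and 1 fell (3.85%) under hairpin 2. Under hairpin 1, 10 rose (38.5%) and 5 fell (19.2%). Over all genes, 21.5% were higher and 13.3% lower with hairpin 2, and 23.7% higher and 9.23% lower with hairpin 1. Fuca2, another fucosidase, rose by 1.12 with hairpin 2 and 1.03 with hairpin 1. Lgmn, the asparagine-specific protease legumain, rose by 1.22 with hairpin 2 and 0.61 with hairpin 1, and the carboxypeptidase Prcp by 1.06 with hairpin 2 and 0.53 with hairpin 1. The dipeptidyl peptidase Dpp7 fell by 0.24 with hairpin 2 and by 0.57 with hairpin 1. Both directions occur in this list.

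Of 28 tested genes listed as other lysosomal membrane proteins, 8 rose (28.6%) and 5 fell (17.9%) under hairpin 2. Under hairpin 1, 4 rose (14.3%) and 7 fell (25%). Over all genes, 21.5% were higher and 13.3% lower with hairpin 2, and 23.7% higher and 9.23% lower with hairpin 1. Sppl2a, an intramembrane protease, fell by 1.23 with hairpin 2 and by 0.50 with hairpin 1, and the transporter Mfsd1 fell by 0.62 with hairpin 2 and by 0.36 with hairpin 1. Cln8, a protein whose loss causes a form of neuronal ceroid lipofuscinosis, fell by 0.35 with hairpin 2 and by 0.44 with hairpin 1, while Sidt2 rose by 0.24 with hairpin 2 and 0.48 with hairpin 1. The V-ATPase is the proton pump that acidifies the lysosome. Of its 19 subunits and partners tested, 5 rose (26.3%) and 4 fell (21.1%) under hairpin 2, and 4 rose (21.1%) and 4 fell (21.1%) under hairpin 1. The shares higher lay near those of all genes, 21.5% with hairpin 2 and 23.7% with hairpin 1. The shares lower lay above those of all genes, 13.3% with hairpin 2 and 9.23% with hairpin 1. Tcirg1, a membrane subunit, fell by 0.75 with hairpin 2 and by 0.65 with hairpin 1, and Atp6v1d by 0.21 with hairpin 2 and by 0.59 with hairpin 1. Atp6v1h rose by 0.43 with hairpin 2 and 0.21 with hairpin 1, and Atp6v1b2 by 0.39 with hairpin 2 and 0.26 with hairpin 1.

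Of 18 tested genes of mannose 6-phosphate tagging and sorting, 3 rose (16.7%) and 0 fell under hairpin 2 in limma, with 0 lower also at an unadjusted p below 0.05, beside 21.5% higher and 13.3% lower over all genes. With hairpin 1, 2 rose (11.1%) and 1 fell (5.56%), beside 23.7% higher and 9.23% lower. Igf2r, the larger mannose 6-phosphate receptor, rose by 0.41 with hairpin 2 (adjusted p = 0.000635, limma) and 0.39 with hairpin 1 (adjusted p = 0.00108). Gga2, an adaptor of these receptors, rose by 0.53 with hairpin 2 and gave 0.11 with hairpin 1, and Lrp1, an endocytic receptor, rose by 0.63 with hairpin 2 and gave 0.25 with hairpin 1. Sort1, the sorting receptor sortilin, gave 0.17 with hairpin 2 and 0.12 with hairpin 1, neither called. Ap1m1, a subunit of a clathrin adaptor, gave -0.07 with hairpin 2 and rose by 0.21 with hairpin 1. Gnptab, the enzyme that starts the tag, gave 0.11 with hairpin 2 and fell by 0.85 with hairpin 1 (adjusted p = 0.00708, limma).

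Of 28 autophagy genes tested, 5 rose (17.9%) and 2 fell (7.14%) under hairpin 2, beside 21.5% higher and 13.3% lower over all genes. Under hairpin 1, 10 rose (35.7%) and 3 fell (10.7%), beside 23.7% higher and 9.23% lower. Wipi1, which acts on the growing autophagosome membrane, rose by 0.67 with hairpin 2 and 0.55 with hairpin 1, and Atg3, an enzyme of lipid conjugation in autophagy, by 0.53 with hairpin 2 and 0.39 with hairpin 1. Atg14, of the kinase complex that starts autophagosomes, fell by 0.32 with hairpin 2 and by 0.77 with hairpin 1. Ulk2, a kinase of autophagy initiation, gave 0.13 with hairpin 2 and rose by 0.62 with hairpin 1. The other gene lower with hairpin 2 was Atg9a, a lipid scramblase of autophagy, which fell by 0.31 and gave 0.07 with hairpin 1. The others lower with hairpin 1 were Vps11, a tethering subunit, which gave -0.23 with hairpin 2 and fell by 0.52 with hairpin 1, and the GTPase Rab7, which rose by 0.23 with hairpin 2 and fell by 0.19 with hairpin 1. Of 5 cathepsin inhibitors tested, 1 rose (20%) and 0 fell under hairpin 2 in limma, beside 21.5% higher and 13.3% lower over all genes. With hairpin 2, 0 were lower also at an unadjusted p below 0.05. Under hairpin 1, 1 rose (20%) and 2 fell (40%), beside 23.7% higher and 9.23% lower. Serpinb1a rose by 0.77 with hairpin 2 and 0.39 with hairpin 1, and with hairpin 1 the cystatin Cstb fell by 0.55 and Serpinb6a by 0.26. Cystatin C, Cst3, gave 0.08 with hairpin 2 and -0.000497 with hairpin 1, and Cst6 gave -0.06 with hairpin 2 and -0.11 with hairpin 1, none called.

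**Figure D5:**
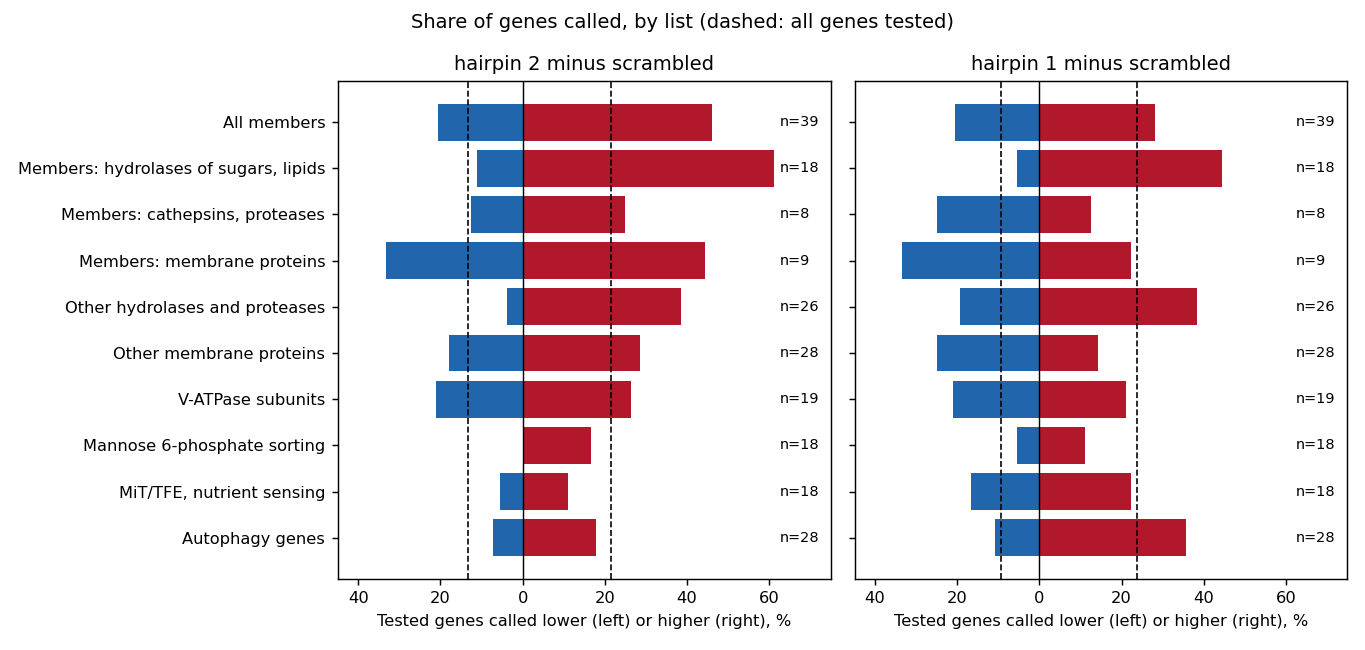
Percent of tested genes called lower (blue, left) and higher (red, right) at an adjusted p below 0.05 in limma, for the lysosomal genes as a whole, for 3 of their classes and for 6 lists of related genes, with the shares over all tested genes as dashed lines and the number tested at the right. Among the sets drawn, the sugar and lipid hydrolases have the highest share called higher with hairpin 2, and the membrane proteins of the 42 the highest share called lower with both hairpins. Cd68, which passed the filter through its level with hairpin 2 alone, is counted in the bars of all lysosomal genes and of their membrane proteins. The 3 soluble cofactors, of which 2 fell with each hairpin, and the 5 cathepsin inhibitors are not drawn.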

How the data were processed

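Expression was measured on 9 Affymetrix arrays, 3 per group, grouped by the array titles. The deposited values are log2 signals, 1 per probe set and array, which the authors computed with RMA, per the submitters' processing notes. RMA subtracts background, equalizes arrays and summarizes probes, and its version is not given in the sources used here. The table holds 45101 probe sets, of which 64 controls were left out. Names come from the platform annotation: 34945 probe sets name 1 symbol, 932 several and 9160 none, and only the first kind was used. Array medians lay between 6.31 and 6.38, and 0 columns were left unmapped. The labels name no batch.

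Each gene was read from its brightest probe set, by the mean over the 9 arrays, and genes with a mean at or above the 30th percentile were tested. One linear model over all 9 arrays was fitted in R 4.3.3 with limma 3.58.1 (lmFit and a trended eBayes), with 3 contrasts, and two-sided p-values were adjusted by Benjamini-Hochberg over all 12735 genes. An adjusted p below 0.05 counted as a call, and the fit was tested on simulated data. Intervals are not adjusted for multiple tests. All 42 genes are described. From each list of related genes or markers, the 4 tested genes that ranked first by p when the average of the hairpins was set against scrambled were named, and every gene behind a count of 3 or fewer. The 42 genes and all lists were chosen with earlier results of these data known, so counts and medians of a list are descriptions beside those of all genes. Fold changes are antilogs of log2 differences and are compressed near the floor (lowest value 3.90) and ceiling (15.0).

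Same-numbered arrays of different groups deviated from their group means with correlations from -0.29 to 0.25, so the repeat numbers were not taken to pair them. Alternatives were another filter or none, averaged probe sets, single probe sets, no trend, quantile or median normalization, array weights, fits of 2 groups, a repeat block and leaving out each array. Promoter windows are RefSeq's, in GRCm38.p6, and were searched in Python 3.11.15. No genome was used, so probe sets have no coordinates here.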

Additional observations from a re-analysis of the deposited data

Results flagged for a closer look

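Each gene named here was singled out because the difference between the hairpins passed its own test in limma (hairpin 2 minus hairpin 1, adjusted p below 0.05 over all genes tested), on the log2 scale with 3 arrays per group. Among the sugar and lipid hydrolases, the difference was 1.60 for Gla, 0.45 for Galns, 0.29 for Arsa, 0.25 for Pla2g15 and 0.13 for Asah1, all higher with hairpin 2, and -0.35 for Glb1 and -0.19 for Smpd1, both lower with hairpin 2. Among the cathepsins it was 1.68 for Ctsk, 0.42 for Ctsz, 0.13 for Ctsl and -0.32 for Ctsb. Among the membrane proteins it was 0.39 for Lamp1, 0.32 for Mcoln1, -0.14 for Scarb2, -0.27 for Lamp2 and -0.48 for Npc1. Cd68 gave 1.19, against a hairpin 1 mean of 5.65 that lies below the filter, which it passed through its level with hairpin 2 alone. Among the soluble cofactors it was 0.12 for Psap and -0.10 for Npc2. The measured Ebf1 signal also differed between the hairpins, and its part in these differences was not tested.

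The calls on Arsa, Asah1, Pla2g15, Psap, Smpd1, Npc2 and Scarb2 ended without at least 1 single array. Scarb2 ended without any of 7 arrays (adjusted p = 0.0548 to 0.182, limma) and Smpd1 without any of 6 (adjusted p = 0.0518 to 0.127). Asah1 ended without any of 3 (adjusted p = 0.0865 to 0.0985), and Npc2, Pla2g15 and Psap each without either of 2. Arsa ended without hairpin 2 repeat 2 (adjusted p = 0.069).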

How the results depend on the processing

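Leaving aside which probe set stands for a gene, 12 of the 18 genes called higher and 7 of the 8 called lower with hairpin 2 were called under every one of 17 alternatives run for them, as were 7 of 11 higher and 5 of 8 lower with hairpin 1, and 7 of 12 higher and 4 of 7 lower between the hairpins. Cd68, counted among those higher with hairpin 2 in both comparisons, had 16, because the stricter filter left it out. In these alternatives 0 called differences changed sign. The calls lost under at least 1 of them were, with hairpin 2, those of Ids, Asah1, Pla2g15, Scarb2, Mcoln1, Psap and Grn; with hairpin 1, those of Arsb, Smpd1, Lipa, Ctsa, Ctsz, Lamp2 and Grn; and between the hairpins, those of Arsa, Asah1, Pla2g15, Ctsl, Psap, Smpd1, Scarb2 and Npc2. Few arrays limit small differences, and values near the floor or ceiling are compressed.

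Among the counts, the genes higher with hairpin 1 numbered 19 with array quality weights and 6 with averaged probe sets, and those lower with hairpin 1 numbered 5 without a mean-variance trend. Genes lower in hairpin 2 than hairpin 1 numbered 4 without a trend, with equal array medians, with averaged probe sets and with only the 2 groups in the fit. The median difference with hairpin 2 was 0.0639 with averaged probe sets, 0.0861 without a filter and 0.0940 with quantile normalization. The median between the hairpins, 0.0227 in the report's fit, was -0.0217 with weights, 0.0515 with equal medians, 0.0839 with averaged probe sets and 0.0438 with quantile normalization. Over all genes, weights gave 5238 higher and 2222 lower with hairpin 1, against 3023 and 1176 without, and 3812 lower in hairpin 2 than hairpin 1, against 2219 without. For each of these shifts the cause was not tested.

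Leaving out 1 array at a time gave 14 to 20 genes higher and 7 to 9 lower with hairpin 2, 7 to 16 higher and 6 to 8 lower with hairpin 1, and 8 to 12 higher and 5 to 11 lower between the hairpins. The medians ran from 0.104 to 0.123 with hairpin 2, from 0.0536 to 0.149 with hairpin 1 and from -0.0593 to 0.0673 between the hairpins. With the repeat number as a replicate block, 19 genes were higher and 8 lower with hairpin 2, 11 higher and 8 lower with hairpin 1, and 13 higher and 8 lower between the hairpins, and 0 calls were lost. The numbers were not taken to pair the arrays.

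All 29 sign changes of a called difference came from other probe sets of the gene or their average, and their cause was not tested. With hairpin 2, Ids gave -0.0280 as an average and -0.310, -0.0863 and -0.314 from single probe sets, Arsb -0.44, Sgsh -0.21, Laptm5 0.0321 and 0.17, Scarb2 -0.0414 and Grn 0.0159. With hairpin 1, Gla gave -0.0875, Arsb -0.13 as an average and -0.12 and -0.48 from single probe sets, Lipa -0.0640, Ctsa -0.0156, Laptm4b -0.88, Laptm5 0.31 and 0.11, and Scarb2 -0.0579 as an average and -0.43 from a single probe set. Between the hairpins, Ids gave -0.29, Ctsb 0.0263, Lamp2 0.0081 and 0.25, Laptm4b 0.44 as an average and 1.27 from a single probe set, and Scarb2 0.12 as an average and 0.38 from a single probe set. Another 73 sign changes were of differences called under neither setting.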

Other observations

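Among the enzymes of gangliosides and related glycolipids, Gla and Arsa rose and Hexa and Glb1 fell with hairpin 2. The sialidase Neu1 also rose with hairpin 2. From the list of other hydrolases, Galc rose by 0.37 and Gm2a by 0.25 with hairpin 2, while Gba2 gave 0.10 and was not called. Of the pair of proteins that exports cholesterol, both fell with hairpin 2, and with hairpin 1 Npc2 fell and Npc1 gave -0.04.

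The median deviation of the 14 glycosidases and sulfatases from their control means was 0.22, 0.34 and 0.33 on the hairpin 2 arrays and 0.10, 0.28 and 0.26 on the hairpin 1 arrays, against -0.0389, -0.00174 and 0.0318 on the scrambled arrays. Over all genes tested it was 0.03, 0.04 and 0.01 on the hairpin 2 arrays and 0.01, 0.12 and 0.08 on the hairpin 1 arrays, against -0.00248, -0.0106 and 0.0136 on the scrambled arrays. Hairpin 1 repeat 1 had the lowest of the hairpin 1 values in both.

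Some genes outside the 42, chosen after their values were seen, ran in opposite directions under the hairpins. Epdr1, an ependymin-related lysosomal protein, rose by 0.82 with hairpin 2 and fell by 0.39 with hairpin 1, and Tpcn1, an endolysosomal cation channel, rose by 0.28 with hairpin 2 and fell by 0.78 with hairpin 1 (each with an adjusted p below 0.05 in limma).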
